A study of Mus musculus with 9 samples.

Results

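The genes described here are the voltage-gated and potassium ion channel genes of the mouse: every protein-coding gene whose symbol begins with Kcn, with Cacn, or with Scn followed directly by a digit. The rule uses symbols alone and found 134 genes among the 35288 identifiers of the deposited table, of which 21879 are protein-coding. They comprise 40 pore-forming voltage-gated potassium channel genes, 17 potassium channel accessory genes, 15 inward rectifiers, 14 tandem-pore (K2P) channels, 8 calcium- or sodium-activated potassium channels, 10 calcium channel alpha1 genes, 4 alpha2delta, 4 beta and 8 gamma genes, 10 sodium channel alpha genes and 4 sodium channel beta genes. Their RNA was measured by bulk RNA-seq in T15 cells, a mouse peripheral T-cell lymphoma line that lacks Smarcb1, a core subunit of the SWI/SNF chromatin remodelling complex. Each of 3 groups had 3 libraries. Control cells were Smarcb1-negative T15 cells. SAHA cells were the same line given SAHA (vorinostat, a histone deacetylase inhibitor) at 1 µM, applied repeatedly over 72 h. Smarcb1-RE cells carried a lentiviral, doxycycline-inducible pInducer20 plasmid with Smarcb1 cDNA, were selected with G418 and were induced with 0.5 µg/µl doxycycline for 72 h. Stable clones were made after transduction, and the sources do not say how many entered the libraries. The study's text calls the control cells untreated, while the labels mention both a vehicle and a control plasmid without assigning either to the control libraries, so transduction, selection and doxycycline cannot be told apart from Smarcb1 itself.

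Ion channels set the voltage across the cell membrane and let calcium in. In T cells, potassium channels such as Kcna3 and Kcnn4 keep the membrane negative inside, which sustains calcium entry through the Orai and Stim proteins once the antigen receptor is engaged. Voltage-gated sodium channels and most voltage-gated calcium channels are known from nerve and muscle, where an alpha subunit forms the pore and smaller subunits guide it to the membrane and tune its gating.

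Library totals ran from 20900424 to 24941408 counts and were lowest in Smarcb1-RE (20900424 to 21911105). The targeted gene Smarcb1 held 2, 5 and 8 counts in the control libraries, 7, 13 and 3 with SAHA and 151, 147 and 142 in Smarcb1-RE, which is higher in each re-expression library than in any other. Of 10 T-cell marker genes, 7 were above 3 counts in each library, among them the Cd3 chains, Lck and Trac, while Cd2 and Cd5 were at or under 3 counts in all 9 libraries and Thy1 averaged at most 0.146 CPM (counts scaled to the size of the library) in any group. Among markers of the tissues these channels are best known from, 9 of 10 muscle genes stayed at or under 3 counts in all libraries and the summed muscle level was at most 0.298 CPM. Of 10 neuron markers, 5 stayed at or under 3 counts throughout (Rbfox3, Syt1, Stmn2, Gap43 and Nefl), and the summed level was 67.2 to 69.6 CPM in control, 158 to 164 in SAHA and 63.6 to 68.3 in Smarcb1-RE, most of it from Snap25. Of 8 myeloid markers, 4 stayed at or under 3 counts throughout (Csf1r, Adgre1, Cd14 and Fcgr1), and the sum was 2.11 to 2.67 CPM in control, 5.89 to 7.45 in SAHA, mostly Cd68, and 1.90 to 1.98 in Smarcb1-RE. Among B-cell markers, Pax5 had log2 changes of 2.90 in SAHA and 5.24 in Smarcb1-RE, and Ms4a1 of -0.10 and 2.08. The part of such marker differences in the channel values was not tested. The study's methods call the replicates biological, and whether they were separate cultures is not said in the sources used here, so p-values measure only the spread between these libraries.

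Most of the channel genes gave little or no RNA. In all, 35 of the 134 had no count in any library, and 66 never exceeded 3 counts. The 66 are 49.3% of the channel genes, beside 34.7% of all protein-coding genes. They include 12 of 15 inward rectifiers, 25 of 40 voltage-gated potassium alpha genes, 7 of 14 K2P genes and 5 of 8 calcium channel gamma genes. Silent in control, meaning at or under 3 counts in each control library, were 87 channel genes (64.9%, beside 39.7% of protein-coding genes). Above 3 counts in each library of a group were 37 channel genes in control, 43 in SAHA and 42 in Smarcb1-RE, and 33 of these were shared by all 3 groups. Any single control library held 41 or 42 channel genes above 3 counts, any SAHA library 47 to 50, and any Smarcb1-RE library 47 to 51. The shares of all protein-coding genes above 3 counts by group or library were not counted, so these numbers are a description.

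No channel gene that was silent in control reached 10 counts in each SAHA library, beside 0.322% of the 8696 protein-coding genes silent in control. In Smarcb1-RE 3 did, Cacna2d1, Kcnq5 and Kcnma1, beside 1.06% of those 8696 genes, and none did so under both treatments (0.069%). These classes are cut from the counts themselves and are described without a test. Cacna2d1 encodes an extracellular alpha2delta subunit, which carries calcium channels to the membrane and binds gabapentin. It had no count in the 3 control libraries, 1, 2 and 1 with SAHA, and 15, 20 and 15 in Smarcb1-RE. Every re-expression library was therefore above every other, at a level at least 5.75-fold higher than a floor of 3 counts per control library. The fit called Cacna2d1 higher in SAHA also, but on 4 counts in all, and with both groups under the floor no fold is given. That call was lost in DESeq2 (adjusted p = 0.08) and without any single control library or SAHA library 2 (adjusted p 0.0584 to 0.083). Kcnq5, a subunit of the slow M-type potassium current, had 0, 0 and 1 counts in control, 1, 2 and 0 with SAHA and 33, 36 and 23 in Smarcb1-RE. Its summed counts gave a ratio of 95.0 to control, with an exact 95% counting interval of 16.6 to 3792, and of 30.5 to SAHA (10.1 to 151). Kcnq5 is the gene of the 3 that passed 20 counts in each re-expression library, and a processed pseudogene on its strand, Gm7658, which is counted apart, held 25 to 46 counts with no such difference between groups. Kcnma1, the large-conductance potassium channel opened by calcium and voltage, had 3 counts in each control library, 4, 5 and 2 with SAHA and 10, 14 and 15 in Smarcb1-RE. It sat at the edge of the definition, with a ratio to control of 4.47 (counting interval 2.13 to 10.5), and left the class when all libraries were thinned to the smallest total. Such intervals and the floor cover counting error only.

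With appearance set at more than 3 counts in each treated library, the class grew to 4 genes in SAHA and 5 in Smarcb1-RE. The share of all protein-coding genes was not counted at this cut, so these numbers are a description. Among those in SAHA were Cacna1h, Cacnb4 and Kcnn3, and those in Smarcb1-RE were Cacna1e and Cacnb4 besides the 3 above, so that Cacnb4 was the member found under both. Cacna1h, a T-type calcium channel that opens at low voltage, had 1, 2 and 1 counts in control, 4, 8 and 8 with SAHA and none in Smarcb1-RE. The ratio of SAHA to control was 5.19 (counting interval 1.74 to 20.9). The SAHA libraries stood above all others. Kcnn3, a small-conductance calcium-activated potassium channel, had 0, 0 and 2 counts in control, 4, 6 and 5 with SAHA and 1, 0 and 1 in Smarcb1-RE (SAHA to control 7.78, 1.81 to 70.1). Cacnb4, a calcium channel beta subunit, had 2, 1 and 3 counts in control, 4, 8 and 5 with SAHA and 11, 7 and 4 in Smarcb1-RE, with ratios to control of 2.94 (1.11 to 9.10) and 3.79 (1.49 to 11.4). Cacna1e, the R-type calcium channel, had 0, 3 and 3 counts in control, 4, 0 and 0 with SAHA and 8, 9 and 8 in Smarcb1-RE (re-expression to control 4.30, 1.72 to 12.8). All these counts lie close to the floor. The genes here and in the preceding paragraph were picked by these same counts, so ratios above 1 follow from the choice and the intervals show only how uncertain each ratio is.

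**Figure D1:**
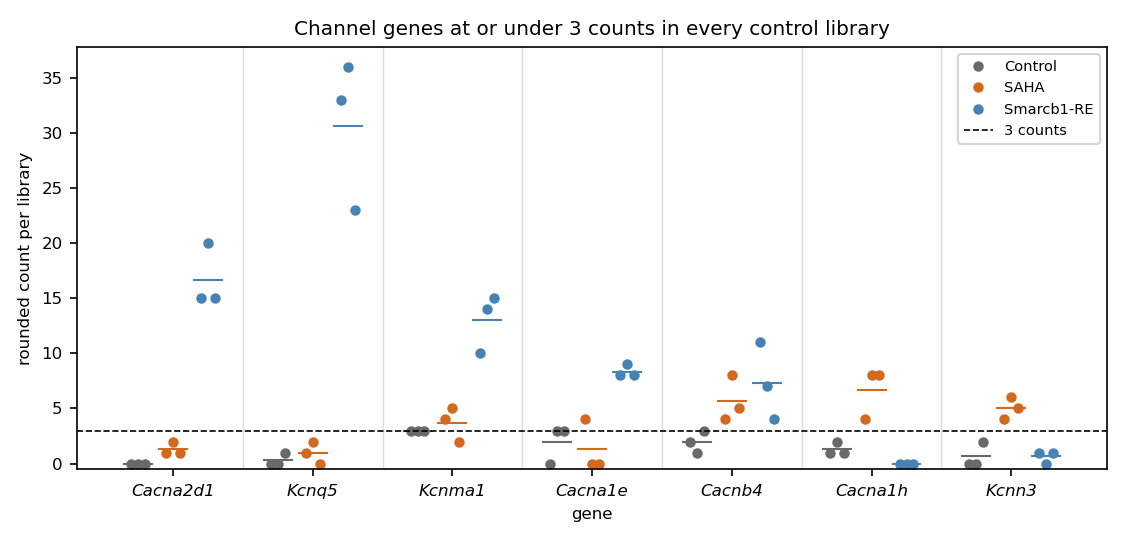
Rounded counts per library (vertical axis) of 7 channel genes that were at or under 3 counts in each control library and above 3 counts in each library of at least 1 treatment, with a point per library, short lines at group means and a dashed line at 3 counts. Cacna2d1, Kcnq5 and Kcnma1 rise to 10 or more counts in each Smarcb1-RE library, and the other 4 genes stay at or under 11 counts.

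The opposite pattern, above 3 counts in each control library and at or under 3 in each treated one, held for 2 genes in SAHA and for none in Smarcb1-RE. Cacna1i, another T-type calcium channel, had 8, 5 and 5 counts in control, 0, 0 and 1 with SAHA and 2, 6 and 3 in Smarcb1-RE. Kcnk6, a K2P channel discussed in lymphocytes, had 7, 7 and 10 counts in control, 2, 3 and 1 with SAHA and 6, 7 and 7 in Smarcb1-RE, a ratio of control to SAHA of 3.86 (1.54 to 11.5). The treated libraries of Cacna1i overlapped with control in Smarcb1-RE alone, and this gene was singled out after its values were seen. Both genes were picked by these same counts, so the ratio above 1 for Kcnk6 follows from the choice. How many of all genes show this pattern was not counted.

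The promoter windows of the 3 genes that appeared in Smarcb1-RE, and of the neighbours Scn4b and Scn2b described further on, are printed to show how unlike their sequences are. Each window runs from 250 bases before to 50 bases after the gene start given by RefSeq (GRCm38.p6), 5′ to 3′ on the gene's strand, with CG dinucleotides in capitals. The windows are chr5:15934441-15934740 (+) for Cacna2d1, chr1:21962601-21962900 (-) for Kcnq5, chr14:24004156-24004455 (-) for Kcnma1, chr9:45138374-45138673 (+) for Scn4b and chr9:45117626-45117925 (+) for Scn2b. These genes were chosen for printing after their values were seen, and whether T15 cells use these starts was not tested.
Cacna2d1: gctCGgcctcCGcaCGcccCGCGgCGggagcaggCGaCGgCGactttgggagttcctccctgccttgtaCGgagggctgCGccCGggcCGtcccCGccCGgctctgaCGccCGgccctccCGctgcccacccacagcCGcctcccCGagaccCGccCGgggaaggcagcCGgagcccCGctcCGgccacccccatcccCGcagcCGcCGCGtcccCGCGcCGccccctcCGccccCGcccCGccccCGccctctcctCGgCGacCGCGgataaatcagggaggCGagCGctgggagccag
Kcnq5: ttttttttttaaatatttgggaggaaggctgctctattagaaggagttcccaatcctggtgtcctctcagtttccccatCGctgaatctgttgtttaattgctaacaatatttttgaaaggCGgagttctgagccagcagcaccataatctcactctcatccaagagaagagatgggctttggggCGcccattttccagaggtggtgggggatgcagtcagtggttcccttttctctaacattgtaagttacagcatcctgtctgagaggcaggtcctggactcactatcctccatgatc
Kcnma1: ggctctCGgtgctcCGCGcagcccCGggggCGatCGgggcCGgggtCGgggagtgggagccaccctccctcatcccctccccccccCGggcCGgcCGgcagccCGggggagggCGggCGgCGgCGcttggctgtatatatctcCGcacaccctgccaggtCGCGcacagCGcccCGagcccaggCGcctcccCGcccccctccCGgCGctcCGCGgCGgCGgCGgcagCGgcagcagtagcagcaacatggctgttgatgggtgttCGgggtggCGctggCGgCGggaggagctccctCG
Scn4b: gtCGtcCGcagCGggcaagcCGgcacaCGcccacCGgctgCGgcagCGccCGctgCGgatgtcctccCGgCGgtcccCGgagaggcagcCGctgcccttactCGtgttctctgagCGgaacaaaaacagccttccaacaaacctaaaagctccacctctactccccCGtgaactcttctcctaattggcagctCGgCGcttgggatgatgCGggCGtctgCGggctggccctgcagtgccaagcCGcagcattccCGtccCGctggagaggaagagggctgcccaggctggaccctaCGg
Scn2b: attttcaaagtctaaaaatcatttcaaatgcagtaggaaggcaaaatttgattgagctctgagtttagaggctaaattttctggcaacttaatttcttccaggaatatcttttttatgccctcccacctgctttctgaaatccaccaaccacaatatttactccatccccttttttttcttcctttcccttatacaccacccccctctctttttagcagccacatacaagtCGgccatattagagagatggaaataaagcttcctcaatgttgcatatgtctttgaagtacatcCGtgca

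The Cacna2d1 window held 42 CG dinucleotides and 7 copies of GGGCGG, the core of the GC box bound by Sp1, counted on both strands. Kcnma1 held 36 CG and 3 GGGCGG. Kcnq5, which appeared alongside them, held 3 CG and no GGGCGG in the first listed of its 2 RefSeq starts, and the other was not examined. Its window lies outside the GENCODE M21 gene (chr1:21398403-21961942). The Kcnma1 window lies inside its gene (chr14:23289431-24014491), so the sources place these starts differently. Scn4b held 26 CG and Scn2b 2, with no GGGCGG in either. None of the 5 held TATAAA or the AP-1 motif TGANTCA on either strand. Windows on chromosome 18 were left out, and the first listed start of each gene was used. A window was found for 99 of the 134 channel genes. Of these, 49.5% held GGGCGG and the median was 10 CG, beside 35.9% and 7 over the 27025 genes with such a window. The share was 60.0% (median 15.5 CG) in the 30 windows of channel genes that passed the filter on low counts and 42.0% (median 9) in the 50 of those at or under 3 counts in all libraries. TATAAA was in 4.04% of channel gene windows, beside 14.2% of all.

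Among the channel genes that were expressed, a few carried most of the RNA. On the scale of CPM per kb of exon, which allows genes to be compared, the highest in control was Kcnab2 at 71.0 ± 3.68 (SD, n = 3), a cytoplasmic beta subunit of voltage-gated potassium channels. Next came Cacna1s at 35.9 ± 3.25, the alpha1 subunit known as the voltage sensor of skeletal muscle, then Kcnn4 at 14.4 ± 0.889 and Kcnk10 at 8.21 ± 0.337, a K2P channel that responds to stretch and lipids. The control libraries of these 4 did not overlap with those of their neighbours in the order. Scn2b (5.93 ± 0.283) and Scn1a (5.84 ± 0.450) followed with overlapping libraries, then Scn2a (2.87 ± 0.136) and Kcnh4 (2.52 ± 0.206), and no other channel gene passed 1.28. As shares of the summed CPM of all 134 genes, Kcnab2 held 40.4% in control, 25.8% in SAHA and 37.7% in Smarcb1-RE, and Cacna1s 23.9%, 18.1% and 13.9%. The sum itself differed little, at 982 ± 4.46 CPM in control, 935 ± 16.4 in SAHA and 954 ± 1.26 in Smarcb1-RE.

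**Figure D2:**
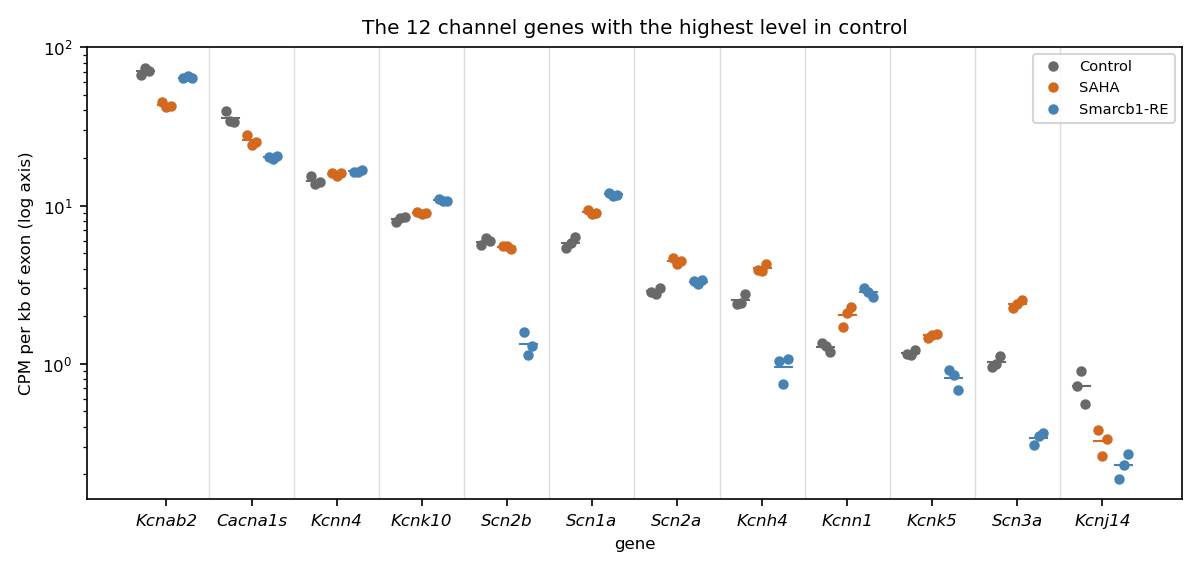
Level in CPM per kb of exon (log axis) of the 12 channel genes with the highest control level, one point per library and a line at each group mean. Kcnab2 is lowest in SAHA, Cacna1s falls from control through SAHA to Smarcb1-RE, and Scn2b, Kcnh4 and Scn3a are lowest in Smarcb1-RE.

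Of the 134 genes, 40 passed the filter on low counts and were tested with edgeR's quasi-likelihood test, fitted over 13697 genes, with Benjamini-Hochberg adjusted p under 0.05 as the call. In SAHA 29 of the 40 (72.5%) were higher than control, beside 32.6% of all genes tested, and 3 (7.5%) were lower, beside 34.3%. In Smarcb1-RE 23 (57.5%) were higher, beside 39.2%, and 10 (25.0%) were lower, beside 38.6%. The median log2 fold change of the 40 was 1.03 in SAHA, beside 0.00 over all genes, and 0.60 in Smarcb1-RE, beside 0.01. Without Cacna2d1, whose SAHA call rests on 4 counts, SAHA had 28 of 39 higher with a median of 0.99. In either direction 32 of the 40 were called in SAHA (66.9% of all genes), 33 in Smarcb1-RE (77.8%) and 28 between the treatments (74.6%). Both comparisons with control share the control libraries. The 40 passed the filter partly through the group in which each is high, so their counts do not speak for all 134. An alternative chosen after seeing the data left out genes averaging fewer than 20 counts over all libraries, and 32 channel genes remained. Of these 32, SAHA had 25 higher (33.2% of all genes) and 3 lower (37.7%). Smarcb1-RE had 19 higher (38.2%) and 9 lower (42.0%), and Smarcb1-RE against SAHA 7 higher (38.3%) and 16 lower (39.2%). In the main fit, a log2 change of at least 1 was passed upward by 18 of the 40 in SAHA (9.85% of all genes). In Smarcb1-RE 15 passed it upward (16.9%), and downward it was passed by 1 in SAHA (2.35%) and 6 in Smarcb1-RE (6.78%).

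Called higher under both treatments were 19 of the 40, beside 19.2% of all genes tested. Lower under both were 3 (Cacna1s, Kcnab2 and Kcnj14), beside 21.5%, and the Smarcb1-RE call of Kcnab2 depended on scaling and filter. A further 6 were higher in SAHA and lower in Smarcb1-RE (Kcnh4, Kcnj10, Kcnk5, Scn3a, Scn4b and Scn9a), beside 7.48%, and no gene was called the other way round (6.73%). In SAHA alone 4 were called higher (5.96%) and none lower (6.05%). In Smarcb1-RE alone 4 were called higher (13.3%), and Scn2b was called lower (9.54%). Cacna1a, Kcnh7 and Scn8a passed in neither (10.2%). Because both treatments are set against the same control libraries, these joint counts are a description. Compared directly, Smarcb1-RE was higher than SAHA for 10 of the 40 (25.0%, beside 37.7% of all genes) and lower for 18 (45.0%, beside 36.8%). The control and SAHA libraries did not overlap for 34 of the 40 (68.7% of all genes), nor did those of control and Smarcb1-RE (79.5%), while SAHA and Smarcb1-RE were apart for 31 (80.0%).

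**Figure D3:**
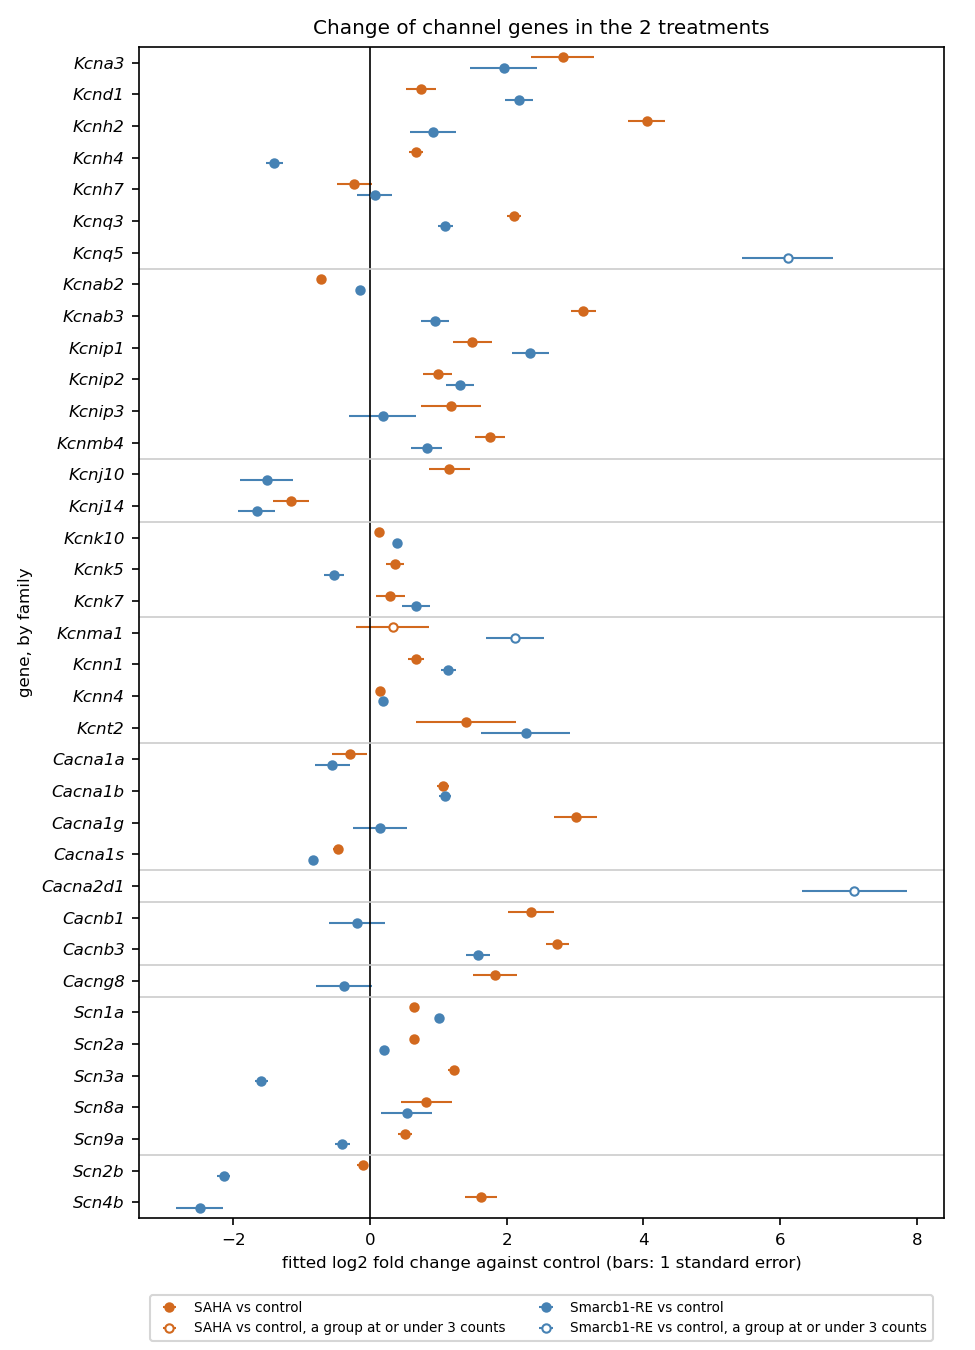
Fitted log2 fold change against control (horizontal axis, bars 1 standard error) of 37 of the 40 tested channel genes, grouped by family, for SAHA (orange) and Smarcb1-RE (blue), with open points where a group is at or under 3 counts in each library and the value depends on the fit's prior, and no SAHA point for Cacna2d1 and Kcnq5, where both groups are. Most points lie right of 0, and Kcnh4, Kcnj10, Kcnk5, Scn3a, Scn4b and Scn9a lie on opposite sides for the treatments.

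Among the potassium channel genes known from lymphocytes, Kcna3 moved most. Kcna3, the voltage-gated channel that sets the resting potential of T cells, had 4, 10 and 2 counts in the control libraries, 28, 50 and 33 with SAHA and 16, 28 and 17 in Smarcb1-RE. All treated libraries were above all control libraries, at 0.225 ± 0.177 CPM in control, 1.61 ± 0.526 in SAHA and 0.885 ± 0.308 in Smarcb1-RE. It rose by 2.82 ± 0.46 (SE) on the log2 scale in SAHA (adjusted p = 0.000147) and by 1.95 ± 0.49 in Smarcb1-RE (adjusted p = 0.00292). SAHA and Smarcb1-RE overlapped, with a difference of -0.87 ± 0.38 (adjusted p = 0.0545) that passed the test with the replicate block, in separate fits and without control library 2 or 3, SAHA library 1 or re-expression library 2 (adjusted p 0.0188 to 0.0455). Kcna2, its close relative on the same stretch of chromosome 3, had 3, 3 and 2, then 0, 3 and 2, and 4, 3 and 4 counts and was not tested.

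Kcnn4, the calcium-activated channel of activated lymphocytes, was abundant and nearly level. It had 1851, 1657 and 1751 counts in control, 1910, 1791 and 1920 with SAHA and 1965, 1892 and 1979 in Smarcb1-RE. After scaling, the increase was 1.11-fold in SAHA (adjusted p = 0.0149) and 1.15-fold in Smarcb1-RE (adjusted p = 0.00211). The SAHA call was lost without control library 2 (adjusted p = 0.0674) and without SAHA library 3 (adjusted p = 0.0545). Kcnk5, a K2P channel tied to volume control, had 93, 92 and 101 counts in control, 115, 118 and 122 with SAHA and 73, 65 and 54 in Smarcb1-RE. Its groups did not overlap and it lay lowest in Smarcb1-RE, where it fell by 0.53 on the log2 scale (SE 0.14, adjusted p = 0.00398). The rise in SAHA, 0.36 ± 0.13 (adjusted p = 0.0276), was lost in DESeq2 (adjusted p = 0.0687), without the filter on low counts, with thinned counts and without control library 2, SAHA library 2 or SAHA library 3 (adjusted p from 0.0645 to 0.0693).

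The voltage-gated potassium channel pores were the family with the most tested members, 10 of the 40 tested. In each treatment 8 of the 10 were called higher, beside 32.6% of all genes tested in SAHA and 39.2% in Smarcb1-RE. Higher in both were 7, beside 19.2%. Of the family's 40 genes 25 never exceeded 3 counts, and the 10 passed the filter partly through the group where each is high. Kcnh2, the ERG channel that repolarises heart muscle, changed most in SAHA. It had 13, 13 and 17 counts in control, 172, 285 and 234 with SAHA and 25, 36 and 18 in Smarcb1-RE, so the SAHA libraries lay far above the rest. The increase in SAHA was 16.6-fold (log2 4.05 ± 0.27, adjusted p = 6.46e-08). In Smarcb1-RE it was 0.92 ± 0.34 on the log2 scale (adjusted p = 0.0244), a call lost without control library 1, control library 2 or re-expression library 2 (adjusted p 0.0677, 0.079 and 0.135). Kcnh4, of the ELK subfamily in the same gene family, went apart between treatments, with 221, 227 and 265 counts in control, 356, 344 and 394 with SAHA and 96, 67 and 98 in Smarcb1-RE. No library of one group reached those of another, and its log2 changes were 0.67 ± 0.11 in SAHA (adjusted p = 0.000103) and -1.40 ± 0.12 in Smarcb1-RE (adjusted p = 3.33e-07).

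Kcnq3, a relative of Kcnq5 whose product also carries a slow, non-inactivating potassium current, was higher under both treatments. Kcnq3 had 119, 122 and 145 counts in control, 472, 575 and 561 with SAHA and 248, 274 and 279 in Smarcb1-RE. The groups did not overlap and SAHA was highest, at 2.11 ± 0.10 against 1.10 ± 0.11 in Smarcb1-RE (adjusted p 6.22e-09 and 1.08e-06).

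Kcnd1, a fast-inactivating A-type channel, and Kcnip1 and Kcnip2, calcium sensors that bind this subfamily, were higher under both treatments. Kcnd1 had 37, 23 and 26 counts in control, 50, 44 and 46 with SAHA and 106, 124 and 147 in Smarcb1-RE, the highest group. It rose by 0.75 ± 0.22 (log2, adjusted p = 0.00913) and 2.17 ± 0.20 (adjusted p = 6.19e-07). Kcnip1 had 12, 8 and 15 counts in control, 33, 31 and 32 with SAHA and 69, 43 and 62 in Smarcb1-RE. Again re-expression was highest without overlap, at 2.35 ± 0.27 against 1.50 ± 0.28 in SAHA (adjusted p 3.93e-06 and 0.000433). A gene inside Kcnip1 on the same strand, 4930469K13Rik, had 35 to 47 counts in control, 85 to 95 in SAHA and 58 to 66 in Smarcb1-RE, so reads shared between them could not be told apart. Kcnip2 rose by 0.99 ± 0.21 and 1.32 ± 0.20 (adjusted p 0.000968 and 5.92e-05). Kcnip3 was called in SAHA at 1.18 ± 0.44 (adjusted p = 0.0309) with overlapping libraries, a call lost without control library 2 or 3 or SAHA library 1 or 2 (adjusted p 0.0791 to 0.17), and its value in Smarcb1-RE was 0.19 ± 0.49 (adjusted p = 0.739). Kcnip4 never exceeded 3 counts and was not tested. Kcnd2 and Kcnd3, the other pores of the subfamily, were at or under 3 counts in all libraries.

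Of the cytoplasmic potassium channel beta subunits, Kcnab2 and Kcnab3 went opposite ways in SAHA. Kcnab2, the most abundant channel gene, had 8815, 9837 and 9681 counts in control, 5812, 5306 and 5483 with SAHA and 8315, 8262 and 8315 in Smarcb1-RE. It was lower in each SAHA library and fell there by 0.72 on the log2 scale (SE 0.05, adjusted p = 4.33e-08). In Smarcb1-RE the value was -0.14 ± 0.05 (adjusted p = 0.0135). The call was lost with library totals as the scaling (0.019, adjusted p = 0.731). With at least 10 counts required in every library it was lost too (-0.084, adjusted p = 0.106). Kcnab2 lies on chromosome 4, where the median log2 change of 674 genes in Smarcb1-RE was 0.29, beside -0.10 over 9661 genes of other autosomes. These 2 medians do not cover all 13697 genes tested, whose median was 0.01. The part of the chromosome 4 shift in the Kcnab2 value was not tested. Kcnab3 had 27, 19 and 33 counts in control, 198, 226 and 239 with SAHA and 46, 57 and 45 in Smarcb1-RE. Each group stood clear of the others, with SAHA highest by far, at 3.12 ± 0.18 against 0.95 ± 0.21 in Smarcb1-RE (adjusted p 2.13e-08 and 0.00102). Kcnab1 never exceeded 3 counts, and Nphp4, which overlaps Kcnab2 on the opposite strand, had 339 to 461.

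Both tested inward rectifiers were lower in Smarcb1-RE, beside 38.6% of all genes tested. Kcnj10, known from glia, had 13, 12 and 17 counts in control, 26, 25 and 40 with SAHA and 5, 6 and 3 in Smarcb1-RE. Its groups were apart in all comparisons, rising by 1.16 ± 0.30 in SAHA (adjusted p = 0.00385) and falling by 1.51 in Smarcb1-RE (SE 0.39, adjusted p = 0.00328). Kcnj14 had 46, 58 and 37 counts in control, 24, 16 and 21 with SAHA and 12, 14 and 17 in Smarcb1-RE. It was lower under both treatments and fell by 1.15 in SAHA and fell by 1.66 in Smarcb1-RE on the log2 scale (adjusted p 0.00158 and 9.8e-05), and the treated groups overlapped.

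Among the other potassium channels, Kcnk10 had 1615, 1728 and 1807 counts in control, 1858, 1766 and 1817 with SAHA and 2277, 2114 and 2187 in Smarcb1-RE. It was highest with re-expression, at 0.40 ± 0.04 on the log2 scale (adjusted p = 1.71e-06), and the value of 0.13 ± 0.04 in SAHA (adjusted p = 0.0146) was lost without SAHA library 1 (adjusted p = 0.0584) and without the filter on low counts (adjusted p = 0.0696). Kcnn1, a small-conductance calcium-activated channel, rose by 0.67 ± 0.11 in SAHA (adjusted p = 0.000204) and 1.15 ± 0.11 in Smarcb1-RE (adjusted p = 8.27e-07). Kcnt2, a sodium-activated channel, had 2, 4 and 2 counts in control, 2, 13 and 6 with SAHA and 9, 9 and 21 in Smarcb1-RE. The re-expression libraries were above the control libraries (2.28 ± 0.66, adjusted p = 0.00663), while the SAHA libraries overlapped both groups (1.40 ± 0.73 against control, adjusted p = 0.106, and adjusted p = 0.0323 without SAHA library 1). Kcnmb4, an accessory subunit of the Kcnma1 channel, rose by 1.75 ± 0.22 and 0.83 ± 0.23 (adjusted p 1.34e-05 and 0.00506).

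**Figure D4:**
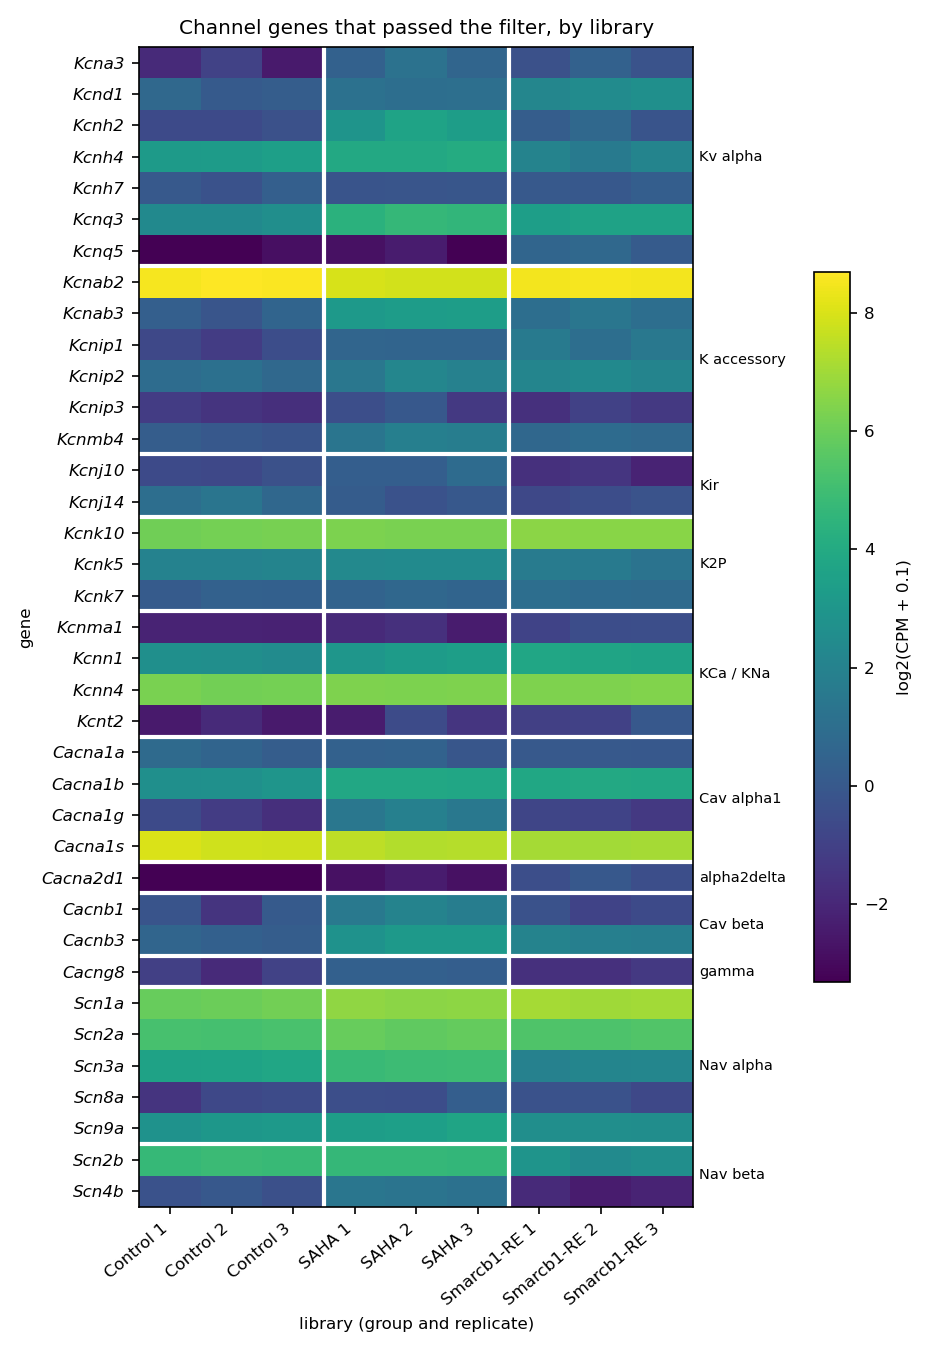
Level of 37 of the 40 tested channel genes in each library as log2(CPM + 0.1), brighter being higher, with columns for the 9 libraries and genes grouped by family. The replicates of a group resemble each other, and the contrast between groups is widest for Kcnq5, Cacna2d1, Kcnh2 and Scn4b.

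Calcium channel genes did not all move one way. Cacna1s, the most abundant alpha1 gene, was lower under both treatments, and the beta subunits Cacnb1 and Cacnb3 were higher in SAHA. Cacna1s had 6101, 5328 and 5359 counts in control, 4230, 3586 and 3861 with SAHA and 3120, 2917 and 3116 in Smarcb1-RE. The groups stood in descending order without overlap, as it fell by 0.47 in SAHA (SE 0.07, adjusted p = 3.33e-05) and fell by 0.83 in Smarcb1-RE (SE 0.07, adjusted p = 1.18e-07) on the log2 scale. The muscle markers gave almost no counts beside it. Cacna1g, a T-type channel like the sparse Cacna1h and Cacna1i, had 13, 8 and 5 counts in control, 61, 82 and 62 with SAHA and 11, 10 and 7 in Smarcb1-RE. SAHA alone stood apart, at 3.01 ± 0.31 (adjusted p = 2.88e-06), with 0.15 ± 0.40 in Smarcb1-RE (adjusted p = 0.742, and -0.15 without control library 3). Cacna1b, the N-type channel of nerve endings, was higher to a like degree under both, at 1.06 ± 0.09 and 1.10 ± 0.09 (adjusted p 4.02e-07 and 1.34e-07). Cacna1a, the P/Q-type channel, had values of -0.30 ± 0.25 and -0.55 ± 0.26 (adjusted p 0.314 and 0.0662).

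Cacnb1, the beta subunit that pairs with Cacna1s in muscle, had 18, 6 and 23 counts in control, 65, 92 and 76 with SAHA and 17, 10 and 13 in Smarcb1-RE. SAHA was above both other groups, which overlapped, with a rise of 2.36 ± 0.34 (adjusted p = 5.11e-05) and a value of -0.18 ± 0.41 in Smarcb1-RE (adjusted p = 0.693, and 0.17 without control library 3). Cacnb3, a beta subunit also described in T cells, had 33, 28 and 26 counts in control, 158, 200 and 205 with SAHA and 96, 80 and 77 in Smarcb1-RE. All groups were apart, and it rose by 2.74 ± 0.17 in SAHA (adjusted p = 3e-08) and 1.58 ± 0.18 in Smarcb1-RE (adjusted p = 3.45e-06). Cacng8, a gamma subunit that also serves AMPA receptors, rose in SAHA by 1.83 ± 0.32 (adjusted p = 0.000255), with a value of -0.38 ± 0.41 in Smarcb1-RE (adjusted p = 0.435). In CPM per kb of exon, the summed calcium channel beta subunits went from 0.461 in control to 2.82 (SAHA) and 1.08 (Smarcb1-RE). The alpha1 sum went from 36.8 to 27.7 and 21.8, but nearly all of it was Cacna1s alone (35.88, 25.85 and 20.18). Of the 4 tested alpha1 genes, 2 were called higher and 1 lower in SAHA, beside 32.6% and 34.3% of all genes tested.

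All 4 of the alpha genes on chromosome 2 that were tested rose in SAHA, while in Smarcb1-RE Scn1a and Scn2a rose and Scn3a and Scn9a fell. Over all genes tested, 32.6% were called higher in SAHA. Scn3a, an alpha subunit of the embryonic brain, had 281, 295 and 339 counts in control, 651, 678 and 732 with SAHA and 90, 98 and 105 in Smarcb1-RE. No groups overlapped, and it was 2.34-fold higher in SAHA (adjusted p = 3.26e-08) and 3.02-fold lower in Smarcb1-RE (adjusted p = 8.09e-09), a difference of 7.05-fold between the treatments. Scn9a, the alpha subunit of pain-sensing neurons, had 164, 192 and 211 counts in control, 240, 245 and 295 with SAHA and 142, 136 and 136 in Smarcb1-RE. In CPM it was likewise lowest in Smarcb1-RE and highest in SAHA, at 0.51 ± 0.10 and -0.41 ± 0.11 (adjusted p 0.000776 and 0.0047), and the fall lost its call with library totals as the scaling (-0.25, adjusted p = 0.0603).

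Scn1a, the alpha subunit of inhibitory neurons, had 1416, 1534 and 1708 counts in control, 2427, 2236 and 2338 with SAHA and 3130, 2906 and 3036 in Smarcb1-RE. It climbed in that order, by 0.64 ± 0.05 and 1.01 ± 0.05 (adjusted p 4.03e-07 and 2.58e-09). Scn2a, of excitatory neurons, had 850, 828 and 934 counts in control, 1366, 1236 and 1328 with SAHA and 995, 913 and 1001 in Smarcb1-RE. It was highest in SAHA, at 0.64 ± 0.05 (adjusted p = 2.54e-07), and rose less in Smarcb1-RE, by 0.20 ± 0.05 (adjusted p = 0.00314). The 5 alpha genes lie together in GENCODE M21 (GRCm38) from the start of Scn3a at chr2:65457118 to the end of Scn7a at chr2:66784914, with Csrnp3, Galnt3 and Ttc21b between them. Scn7a at one end had at most 6 counts in any library. Of the others in between, Galnt3 had log2 changes of -0.26 and 0.41 (adjusted p 0.000101 and 9.84e-07) in SAHA and Smarcb1-RE, and Ttc21b 0.54 and -0.87 (adjusted p 6.32e-07 and 4.4e-09), so neighbours in the interval moved in different directions. These paralogs are alike in sequence, and the authors' estimated counts could divide reads between them.

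Both tested sodium channel beta genes fell in Smarcb1-RE, beside 38.6% of all genes tested that were lower there. Scn2b, an immunoglobulin-like subunit joined to the pore by a disulphide bond, had 617, 683 and 673 counts in control, 601, 587 and 578 with SAHA and 174, 119 and 140 in Smarcb1-RE. It was 4.41-fold lower with re-expression (log2 -2.14 ± 0.09, adjusted p = 5.77e-10), and in SAHA the value was -0.11 ± 0.08 (adjusted p = 0.253). Scn4b, of the same subunit type, had 17, 21 and 16 counts in control, 58, 54 and 49 with SAHA and 4, 2 and 3 in Smarcb1-RE. It was highest in SAHA at 1.62 ± 0.23 (adjusted p = 4.26e-05) and nearly at the floor in Smarcb1-RE at -2.49 ± 0.35 (adjusted p = 2.47e-05), so that the treatments differed by 17.3-fold.

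Scn2b (chr9:45117782-45130070) and Scn4b (chr9:45138395-45154152) lie side by side on the plus strand, near the Cd3 genes. Within 200 kb on each side, Cd3g had log2 changes of 0.40 in SAHA and -0.35 in Smarcb1-RE (adjusted p 2.28e-05 and 5.17e-05). Cd3e had 0.05 and -0.28 (adjusted p 0.294 and 4.23e-05), and Cd3d, between them, -0.19 and 0.05 (adjusted p 0.00406 and 0.391). On the same side, Mpzl3 had 0.26 and -0.74 (adjusted p 0.0023 and 3.75e-07), Ube4a 0.60 and -0.40 (adjusted p 6.94e-07 and 1.9e-05) and Atp5l 0.43 and -0.70 (adjusted p 2.85e-05 and 3.96e-07), which like Scn4b and Cd3g were higher in SAHA and lower in Smarcb1-RE. Mpzl2, also on that side, had 0.97 and 1.53 (adjusted p 7.5e-08 and 4.05e-10), and Il10ra on the far side 1.00 and 2.70 (adjusted p 3.51e-08 and 2.06e-12). Tmprss13, also on the far side, had -1.05 and 3.05 (adjusted p 0.227 and 4.47e-06), on 3, 2 and 4 counts in control. Falls in Smarcb1-RE were thus found in several genes of the interval and not in all. The promoter windows printed above show that these neighbours differ in CG content, with 26 CG in Scn4b and 2 in Scn2b.

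**Figure D5:**
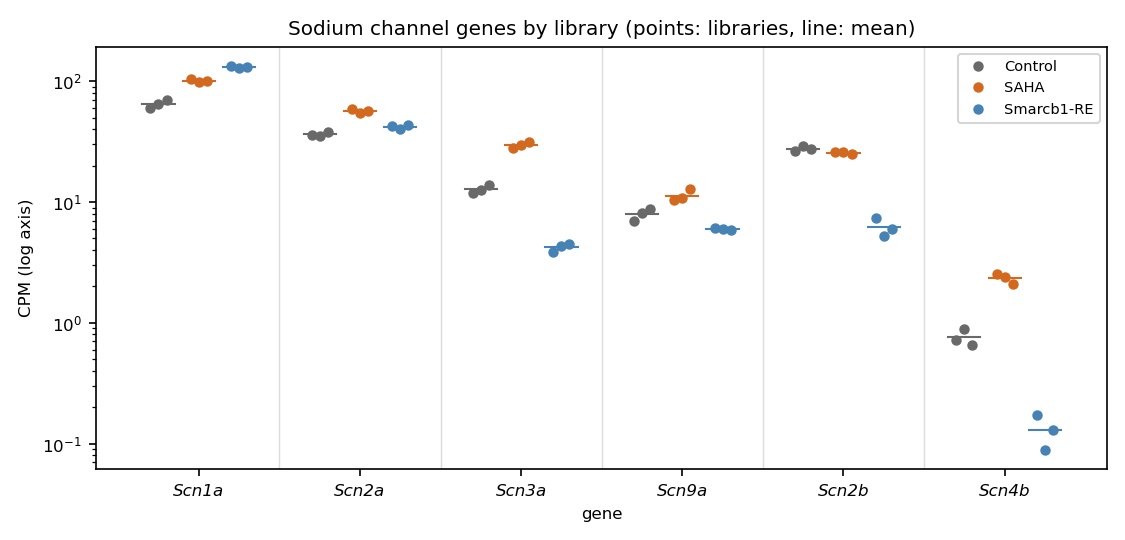
Level in CPM (log axis) of 6 sodium channel genes, one point per library and a line at each group mean. Scn1a and Scn2a are above control under both treatments, Scn3a, Scn9a and Scn4b are highest in SAHA and lowest in Smarcb1-RE, and Scn2b is low in Smarcb1-RE alone.

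Genes of calcium entry and calcium stores, which act together with potassium channels in T cells, were read as a list of 36, of which 35 were in the table and 29 tested. In SAHA 14 of the 29 were higher and 6 lower, beside 32.6% and 34.3% of all genes tested, and in Smarcb1-RE 14 were higher and 10 lower, beside 39.2% and 38.6%, with medians of 0.10 and 0.31 on the log2 scale. Orai1, the pore of the store-operated calcium channel, averaged 11.1 CPM in control, 30.6 in SAHA and 11.0 in Smarcb1-RE, with log2 changes of 1.46 (adjusted p = 5.61e-08) and -0.02 (adjusted p = 0.873). Stim1, which opens it when stores empty, changed by 0.61 and -0.28 (adjusted p 1.03e-06 and 0.000817), and the Orai regulator Cracr2a by -0.97 and 1.52 (adjusted p 4.55e-06 and 7.1e-09). The sodium-permeable channel Trpm4, which is opened by calcium, was higher under both, at 1.23 and 1.60 (adjusted p 3.64e-08 and 1.08e-09), as was the inositol trisphosphate receptor Itpr1, at 0.40 and 1.02 (adjusted p 7.73e-06 and 7.78e-10). Of calmodulin genes, whose protein is the calcium sensor of Kcnn channels, Calm3 fell by 0.59 in SAHA and Calm3 fell by 1.20 in Smarcb1-RE (adjusted p 8.47e-08 and 9e-11). A list of 14 other ion transport genes, chiefly chloride channels, cotransporters and pumps, had 13 tested. In that list 4 genes were higher and 7 lower in SAHA, and 7 higher and 4 lower in Smarcb1-RE, to be read beside the same shares of all genes.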

How the data were processed

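The deposited table holds estimated counts per Ensembl gene. The submitters' processing notes name FastQC 0.11.8, MultiQC 1.7, Salmon 0.14.1, DESeq2 1.22.2 and GRCm38, and the libraries were single-end and directional. Counts deposited by the authors were rounded to whole numbers, and 99.5% of the 35288 identifiers were found in GENCODE M21, which gave symbols and positions. CPM were scaled by the trimmed mean of M values (TMM). A single model over the 3 groups was fitted in edgeR 4.0.16 (R 4.3.3), quasi-likelihood test, after filterByExpr with a minimum count of 10, which 13697 genes passed, and p-values were adjusted by Benjamini-Hochberg over all of them. The fit was tested on simulated data. The common biological coefficient of variation was 5.24%. A floor of 3 counts equals 0.123 to 0.133 CPM. Ratios of low counts carry exact binomial intervals.

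Genes were named if often discussed in lymphocytes, silent in control and appearing, among the 5 largest non-overlapping calls per comparison and direction, among the 6 highest in control, or called in opposite directions. Members and lists were chosen with earlier results of these data known. Alternatives were DESeq2 1.42.0, other scalings and filters, thinning, a replicate block, separate fits, other thresholds and leaving out each library. Deviations of libraries sharing a replicate number correlated at -0.00342 on average (-0.0717 to 0.0366), and the block was kept out of the model. Some genes that met this rule are not reported here.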

Additional observations from a re-analysis of the deposited data

Results flagged for a closer look

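For 6 channel genes the effects of the treatments differed in sign. Each was called higher in SAHA and lower in Smarcb1-RE than control, as were 7.48% of all genes tested. The direct comparison of Smarcb1-RE with SAHA (edgeR quasi-likelihood test, 3 libraries each) was called too. The log2 difference of Smarcb1-RE from SAHA was -4.11 for Scn4b (adjusted p = 7.33e-08), -2.82 for Scn3a (adjusted p = 3.83e-11), -2.67 for Kcnj10 (adjusted p = 1.66e-05) and -2.07 for Kcnh4 (adjusted p = 6.98e-09). It was -0.92 for Scn9a (adjusted p = 5.46e-06) and -0.89 for Kcnk5 (adjusted p = 6.66e-05). Each of the 3 Smarcb1-RE libraries was below each of the 3 SAHA libraries in all 6 genes. The 6 were picked by their opposite calls against the same control libraries. The direct calls and this separation follow from that choice and are no separate support. The SAHA rise of Kcnk5 alone was lost in DESeq2 (adjusted p = 0.0687), and the fall of Scn9a in Smarcb1-RE was lost with library totals as the scaling (adjusted p = 0.0603). Scn4b rests on 2 to 4 counts in the Smarcb1-RE libraries and Kcnj10 on 3 to 6.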

How the results depend on the processing

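Counts of channel genes called were 29 higher and 3 lower in SAHA, 23 and 10 in Smarcb1-RE, and 10 and 18 for Smarcb1-RE against SAHA. Leaving out single libraries gave 26 to 31 and 3, 22 to 24 and 10 to 12, and 10 to 12 and 19 to 21. With a log2 change of at least 1 the counts were 18 and 1, 15 and 6, and 5 and 12. Without a filter on low counts, SAHA had 5 lower and Smarcb1-RE 17 higher than SAHA. With at least 10 counts in every library, 6 were higher in Smarcb1-RE than in SAHA, since only 27 channel genes could then be tested. With the replicate block the counts were 29 and 3, 23 and 10, and 10 and 19, and the replicate numbers do not pair the libraries.

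Of the genes silent in control, 0 appeared with SAHA, 3 in Smarcb1-RE and 0 in both, also without any single library. Those in Smarcb1-RE were 1 with silence set at 0 counts, 1 with appearance at 20 counts and 2 after thinning to the smallest library. With appearance above 3 counts they were 4, 5 and 1.

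Library totals as the scaling moved the median log2 change of all genes in Smarcb1-RE from 0.01 to 0.17 and the share of calls that were higher from 50.4% to 61.0%, and for channel genes from 69.7% to 74.2%. For Smarcb1-RE against SAHA the share went from 50.6% to 62.1% over all genes and from 35.7% to 43.3% for channel genes. The Smarcb1-RE value of Kcnab2 became 0.019 under it (adjusted p = 0.731). Leaving out single libraries, the Smarcb1-RE value of Cacnb1 ran from -0.58 to 0.17 and that of Cacna1g from -0.15 to 0.56, both turning without control library 3 (adjusted p 0.745 and 0.75). Neither Cacnb1 nor Cacna1g was called in Smarcb1-RE, whereas the fall of Kcnab2 was called in the main fit (edgeR adjusted p = 0.0135). Why these values turned was not tested. Over 1284 values of named genes, 1252 kept direction and side of the threshold, 20 lost the call, 9 gained it and 3 turned. Counts near the floor of 3 limit what can be said of the silent genes.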

Other observations

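Of the tested channel genes not described above, Kcnk7, a K2P family member, had 23, 29 and 29 counts in control, 30, 34 and 32 with SAHA and 46, 40 and 39 in Smarcb1-RE, with log2 values of 0.30 ± 0.21 in SAHA (adjusted p = 0.224) and 0.67 ± 0.20 in Smarcb1-RE (edgeR adjusted p = 0.00891). Scn8a, a sodium channel alpha gene on chromosome 15, had values of 0.83 ± 0.37 and 0.54 ± 0.38 (adjusted p 0.0635 and 0.21). Kcnh7, a relative of Kcnh2, had -0.23 ± 0.26 and 0.07 ± 0.25 (adjusted p 0.455 and 0.814).

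Cacna1c, an L-type calcium channel that did not pass the filter on low counts, had 0, 4 and 6 counts in control, 9, 17 and 12 with SAHA and 0, 2 and 0 in Smarcb1-RE. Kcnc4, a voltage-gated potassium channel, had no count in the control and Smarcb1-RE libraries and 2, 7 and 5 in SAHA. Cacng4, a calcium channel gamma gene, had 6, 0 and 2 counts in control, 1, 2 and 4 with SAHA and 13, 8 and 10 in Smarcb1-RE. These 3 were chosen after their values were seen.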
